A study of Mus musculus with 7 samples.

Results

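The granzymes and perforin are the cargo with which cytotoxic lymphocytes kill. Of the 38026 genes in the deposited table, 10 were taken by symbol, namely the 8 granzyme genes *Gzma*, *Gzmb*, *Gzmc*, *Gzmd*, *Gzme*, *Gzmf*, *Gzmk* and *Gzmm*, the perforin gene *Prf1*, and *Nkg7*, which encodes a membrane protein of the same granules. All 10 passed the filter on low values (3 or more libraries with a value of 10 or higher), as did 21322 genes in all. The transcripts were measured by RNA-seq in 7 untreated subcutaneous tumors of pancreatic ductal adenocarcinoma (PDA) in C57BL/6 mice, each taken 2 weeks after cells were injected. The tumors grew from line 1242, made from a tumor of a KPC mouse, which carries a conditional allele of mutant Trp53 and a Cre transgene driven by the Pdx1 promoter of the pancreas. In 4 tumors, called sgScramble and numbered 1 to 4, the cells carried Cas9 and a scrambled guide RNA, and in 3 tumors, called sgKrt19 and numbered 5, 6 and 8, Cas9 and a guide against *Krt19*, the gene of keratin-19. Both groups therefore share the line, the lentiviral Cas9 vector and the puromycin selection. The sources do not say whether the cells of these tumors were polyclonal or 1 clone. The sex of the hosts is not given, and they had their own immune system. Per the methods, mice arrived at an age of 6 weeks and were kept for 2 weeks before any experiment. The comparison asks how tumors whose cancer cells lack keratin-19 differ from controls in the transcripts of killer lymphocytes.

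In a cytotoxic lymphocyte the granzymes, which are serine proteases, are stored with perforin in acidic granules on a proteoglycan scaffold. On contact with a target cell the granule fuses with the plasma membrane, perforin forms pores, and the granzymes enter the target, where granzyme B cleaves after aspartate and starts apoptosis, in part through Bid, and granzymes A and K cleave after basic residues. Mice hold a cluster of further granzyme genes next to *Gzmb*, from *Gzmc* to *Gzmg* and *Gzmn*, which are known from strongly activated killer cells and from uterine natural killer (NK) cells, and granzyme M is best known from NK cells.

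In the mm10 (GRCm38) build, *Gzmb* (56258838 to 56262260), *Gzmc* (56231441 to 56234656), *Gzmf* (56205263 to 56211417), *Gzmd* (56129556 to 56132608) and *Gzme* (56117626 to 56120625) lie in 1 cluster on the minus strand of chromosome 14, with *Gzmg* and *Gzmn* among them. *Gzma* (113093825 to 113100981) and *Gzmk* (113171608 to 113225908) are neighbors on the minus strand of chromosome 13, whereas *Prf1* (61297833 to 61304680) and *Gzmm* (79689020 to 79695261) are on the plus strand of chromosome 10 and *Nkg7* (43437073 to 43438249) on the plus strand of chromosome 7. The promoters of 6 members are shown as the 250 bases before the RefSeq transcription start (GRCm38.p6), 5′ to 3′ on the strand of the gene. Those of *Gzma*, *Gzmb* and *Prf1* are given because most of the comparisons rest on these genes, and those of *Gzmc*, *Gzmd* and *Gzmf* because they are close copies of each other, while *Gzmc* overlapped between the groups and the other two did not. The regions are chr13:113100982-113101231 (minus strand) for *Gzma*, chr14:56262335-56262584 (minus strand) for *Gzmb*, chr10:61297586-61297835 (plus strand) for *Prf1*, chr14:56234658-56234907 (minus strand) for *Gzmc*, chr14:56132594-56132843 (minus strand) for *Gzmd* and chr14:56211408-56211657 (minus strand) for *Gzmf*. Capitals mark matches to the RUNX motif TGTGGT, the cyclic AMP response element TGACGTCA and the AP-1 motif TGANTCA, each searched on both strands.
Gzma: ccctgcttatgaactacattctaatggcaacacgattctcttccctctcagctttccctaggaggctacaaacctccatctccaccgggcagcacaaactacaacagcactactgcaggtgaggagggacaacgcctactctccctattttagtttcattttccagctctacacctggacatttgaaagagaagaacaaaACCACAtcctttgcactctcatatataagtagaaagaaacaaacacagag
Gzmb: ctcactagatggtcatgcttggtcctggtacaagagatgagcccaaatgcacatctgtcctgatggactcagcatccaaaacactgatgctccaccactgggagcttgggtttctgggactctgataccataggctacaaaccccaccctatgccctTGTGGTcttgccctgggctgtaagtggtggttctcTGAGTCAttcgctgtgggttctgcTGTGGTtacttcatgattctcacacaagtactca
Prf1: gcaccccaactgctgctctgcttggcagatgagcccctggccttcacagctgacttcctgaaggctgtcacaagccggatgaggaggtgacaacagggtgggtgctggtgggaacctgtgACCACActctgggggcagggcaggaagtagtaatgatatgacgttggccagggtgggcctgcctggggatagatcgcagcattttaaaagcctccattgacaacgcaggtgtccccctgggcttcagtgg
Gzmc: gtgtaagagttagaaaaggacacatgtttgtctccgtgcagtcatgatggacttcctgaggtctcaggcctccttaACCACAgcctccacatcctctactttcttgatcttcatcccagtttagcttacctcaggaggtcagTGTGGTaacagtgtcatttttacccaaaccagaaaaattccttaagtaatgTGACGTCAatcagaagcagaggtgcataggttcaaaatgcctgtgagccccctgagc
Gzmd: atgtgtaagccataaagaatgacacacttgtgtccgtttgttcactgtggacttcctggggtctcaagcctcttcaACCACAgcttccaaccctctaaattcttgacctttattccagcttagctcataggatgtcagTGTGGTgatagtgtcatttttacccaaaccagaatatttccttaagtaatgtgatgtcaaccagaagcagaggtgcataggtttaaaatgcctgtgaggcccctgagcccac
Gzmf: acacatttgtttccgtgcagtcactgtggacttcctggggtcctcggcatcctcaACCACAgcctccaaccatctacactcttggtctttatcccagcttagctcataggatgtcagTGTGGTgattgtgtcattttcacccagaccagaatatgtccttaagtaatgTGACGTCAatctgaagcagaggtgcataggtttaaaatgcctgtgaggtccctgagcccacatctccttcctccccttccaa

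All 10 members had an entry among the RefSeq promoter windows, which run from 250 bases before to 50 bases after the start, with 11 windows because *Gzmm* has 2. A RUNX motif stood in a window of 9 of the 10 members, the exception being *Gzmk*, and in 16.76% of all 32851 windows. *Gzmc* and *Gzmf* held TGACGTCA (1.79% of all windows), *Gzmb* held an AP-1 motif (7.808%), and *Gzmk*, *Gzmm* and *Nkg7* held the T-box motif GGTGTGA (3.979%). None of these motifs overlapped another in the members. The windows of *Gzmc*, *Gzmd*, *Gzme*, *Gzmf* and the neighboring *Gzmg* were 83.79% to 93.67% identical in the 10 pairs, with *Gzmd* and *Gzme* the closest at 281 of 300 bases, and *Gzmc* shared 84.33% with *Gzmd* and 85.05% with *Gzmf*. A match of letters is a description of the sequence and not a measured binding site.

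The 7 libraries held 40781199 to 44972100 reads in genes, and 28204 to 30143 genes had at least 1 read. The values are normalized read counts, that is, reads divided by a size factor for each library, so 3 reads correspond to a value of 2.74 to 3.47. Means are given ± the SD over the 4 sgScramble or the 3 sgKrt19 libraries, and each log2 fold change is sgKrt19 over sgScramble with its SE and the p-value that limma gave after Benjamini-Hochberg adjustment over all 21322 genes. *Krt19* was at 23053 ± 4392 (n = 4) in the controls and at 2012 ± 434 (n = 3) in the edited tumors (−3.52 on the log2 scale with an SE of 0.183, limma adjusted p = 1.74e-05), and every library matched its label. Between the groups 34% of the 21322 genes passed an adjusted p of 0.05, with 17.9% (3820 genes) higher and 16% (3420) lower in sgKrt19. When libraries were scaled by their total reads alone, 2187 genes were higher and 5705 lower. A list of 10 skeletal muscle fiber genes was higher in sgKrt19 for all 10, with a summed value of 298 to 2925 in sgScramble and 21996 to 31305 in sgKrt19. Its highest value in sgScramble was that of library 3, and the part of muscle tissue in the results that follow was not tested. Of the list, *Ckm*, *Myh1*, *Myh4*, *Actn2*, *Actn3* and *Tnnt3* reached a value of 10 in sgScramble only in library 3. They passed the filter on low values by their sgKrt19 libraries, so the count of muscle genes is in part set by the filter.

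Of the 10 members, 8 were higher in sgKrt19 by limma at an adjusted p of 0.05, 0 were lower, and *Gzmc* and *Gzmm* did not pass. Among all genes tested, 17.9% were called higher. The same 8 were higher by edgeR, which called 17.3% of all genes higher, and by DESeq2, which called 19.3%. The median log2 fold change of the members was 1.88, beside 0.01 for all genes tested. For 9 members the 3 sgKrt19 libraries lay above the 4 sgScramble libraries, a pattern shown by 21.7% of all genes tested, and only *Gzmc* overlapped. The order of the log2 fold changes ran from *Gzma*, *Gzmk* and *Nkg7*, above 2.8, through *Gzmb* and *Prf1*, at about 2, to the chromosome 14 genes *Gzmf*, *Gzmd* and *Gzme*. In bulk tumor RNA, more cells that make a transcript and more of it per cell cannot be told apart.

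*Gzma*, a tryptase, had values of 125, 71.1, 42.0 and 68.6 in sgScramble libraries 1 to 4 and of 965, 703 and 824 in sgKrt19 libraries 5, 6 and 8. The lowest sgKrt19 library was thus far above the highest control, and the mean rose from 76.8 ± 34.98 to 831 ± 131, a ratio of 10.8. Its log2 fold change of 3.51 (limma, SE 0.305, adjusted p = 5.88e-05) was the highest among the members. *Gzmk*, the other tryptase, was the scarcest member in sgScramble, with values of 10.2, 9.88, 2.74 and 1.85, which are 11, 10, 3 and 2 reads. In sgKrt19 it stood at 78.6, 98.0 and 22.1, from 68, 98 and 21 reads. All 3 were above the controls, but library 8 was far below the other two. The rise from 6.17 ± 4.49 to 66.2 ± 39.5 gave a log2 fold change of 3.24 (limma, SE 0.633, adjusted p = 0.00400), with a 95% interval of 1.83 to 4.64. Without sgKrt19 8 it was 3.89. *Gzmk* passed the filter on low values by its sgKrt19 libraries, and without a filter its limma adjusted p was 0.00301.

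*Gzmb*, the granzyme best known for starting apoptosis, had values of 460, 486, 252 and 463 in sgScramble and of 1810, 1663 and 1445 in sgKrt19. The controls agreed closely except library 3, which was lower, and the sgKrt19 libraries differed from each other by a factor of 1.25. The mean went up from 415 ± 109 to 1640 ± 184, giving a log2 fold change of 2.02 (limma, SE 0.218, adjusted p = 0.000183). *Prf1*, the pore-forming partner of all granzymes, was at 114, 179, 143 and 193 in sgScramble and at 543, 617 and 709 in sgKrt19. Its groups were clearly apart, and its mean rose from 157 ± 35.5 to 623 ± 82.9. The log2 fold change of *Prf1*, 2.00 (SE 0.197, limma adjusted p = 0.000109), was within the error of that of *Gzmb*. *Nkg7*, whose product is needed for efficient release of granules, had values of 199, 179, 93.2 and 121 in sgScramble and of 1220, 1195 and 739 in sgKrt19. Library 3 was the lowest of its group and library 8 the lowest of the other, yet the groups were far apart. The rise from 148 ± 49.1 to 1051 ± 271 was a ratio of 7.10 and a log2 fold change of 2.85 (limma, SE 0.276, adjusted p = 9.99e-05).

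**Figure D1:**
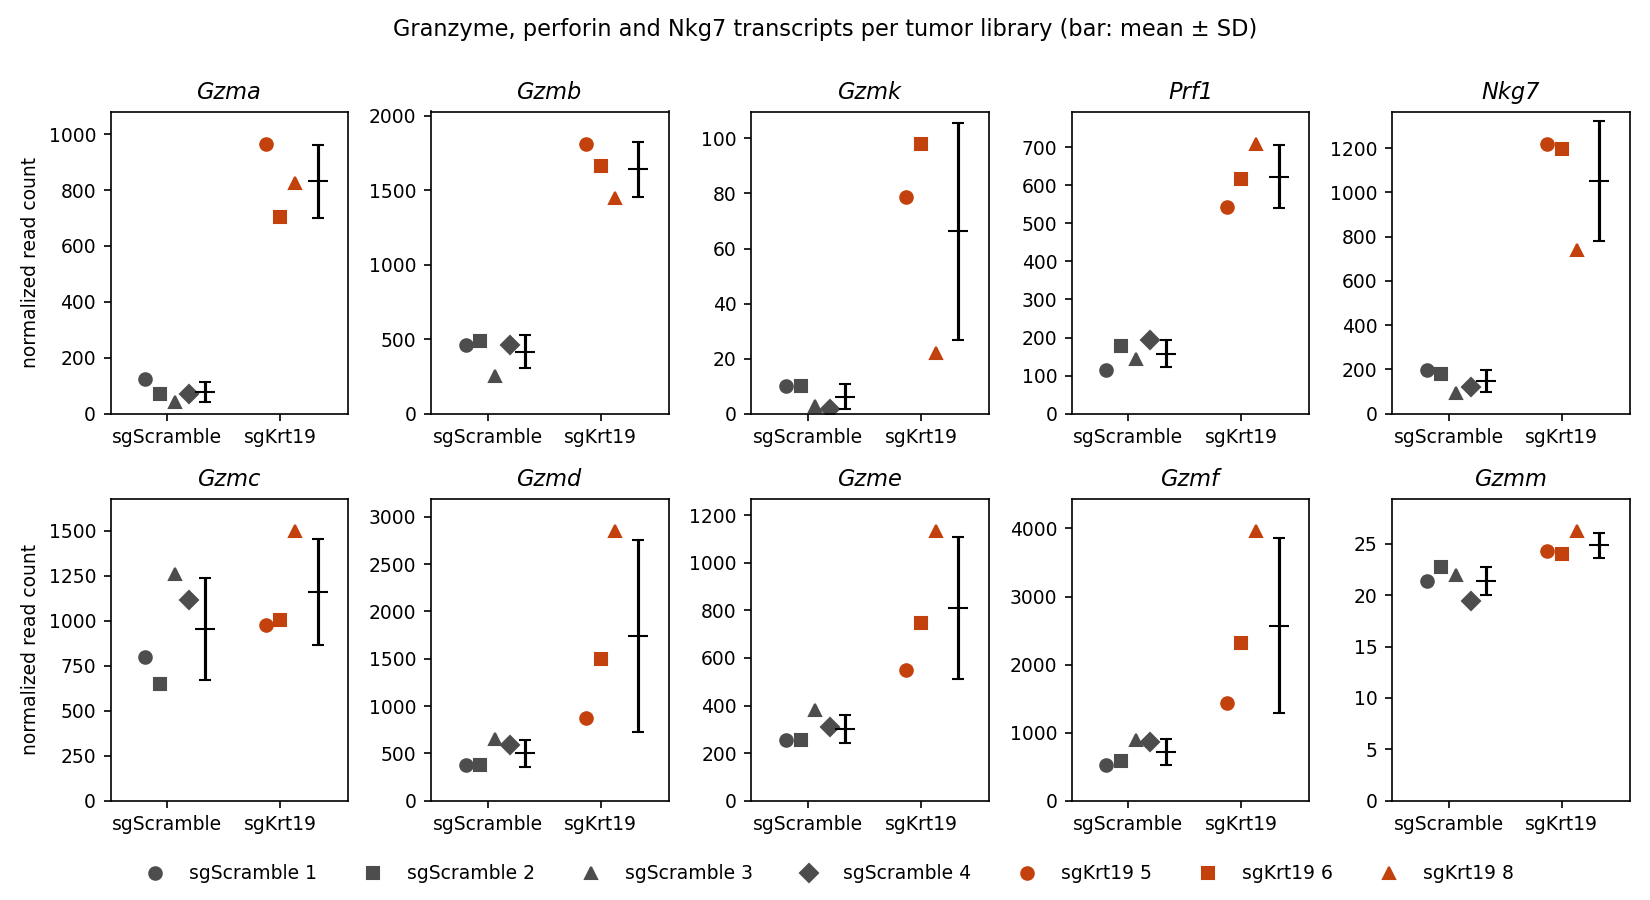
Normalized read counts (linear axes from 0) of the 10 genes in the 4 sgScramble and 3 sgKrt19 libraries, with a bar for the mean ± SD of each group. *Gzma* lies between 42.0 and 125 in sgScramble and between 703 and 965 in sgKrt19, while *Gzmc* overlaps between the groups.

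Of the other granzymes of the chromosome 14 cluster among the members, 3 passed the test and *Gzmc* did not. *Gzmc* was at 798, 647, 1262 and 1117 in sgScramble and at 979, 1002 and 1500 in sgKrt19. Libraries 5 and 6 lay inside the range of the controls, so the groups overlapped. The means were 956 ± 283 and 1160 ± 294, and the log2 fold change of 0.30 (limma, SE 0.237, adjusted p = 0.344) had a 95% interval of −0.23 to 0.83. That interval lies below the intervals of *Gzmd* (0.90 to 2.45), *Gzme* (0.86 to 1.91) and *Gzmf* (1.06 to 2.44), although the difference between these genes was not tested itself.

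*Gzmd* was at 382, 375, 648 and 589 in sgScramble and at 876, 1493 and 2850 in sgKrt19. The 3 sgKrt19 libraries were above all controls and also far from each other, by a factor of 3.25 between the highest and the lowest. The mean went up from 499 ± 141 to 1740 ± 1010, giving a log2 fold change of 1.68 (limma, SE 0.349, adjusted p = 0.00546). *Gzme* was at 256, 254, 381 and 310 in sgScramble and at 550, 745 and 1134 in sgKrt19. Its groups were apart, with a rise from 300.2 ± 59.6 to 810 ± 297 and a log2 fold change of 1.39 (limma, SE 0.237, adjusted p = 0.00198). *Gzmf* was at 529, 587, 897 and 869 in sgScramble and at 1442, 2311 and 3964 in sgKrt19. The same library 8 was again the highest, at 2.75 times library 5, and the mean went up from 721 ± 189 to 2572 ± 1282, giving a log2 fold change of 1.75 (limma, SE 0.309, adjusted p = 0.00231).

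Since these genes are close relatives, the letters that they share bear on their counts. Of all stretches of 76 bases, the read length, 5.40% in *Gzmd* transcripts and 4.4% in *Gzme* transcripts also occurred in another gene of the cluster, and none did in *Gzmc*. In *Gzmf* 9.36% occurred in *Gm4022*, a gene on the opposite strand whose exons overlap 16.43% of its exon bases. The other members shared none. How the authors counted reads that fit several genes is not given in the sources used here.

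*Gzmm*, the granzyme best known from NK cells, was at 21.4, 22.7, 21.9 and 19.5 in sgScramble and at 24.3, 24.0 and 26.3 in sgKrt19, from 21 to 25 reads a library. Although the sgKrt19 libraries were above the others, the gap was small, with means of 21.4 ± 1.38 and 24.8 ± 1.23. Its log2 fold change of 0.21 (limma, SE 0.243, adjusted p = 0.525) had a 95% interval of −0.33 to 0.75. With libraries scaled by total reads alone it was 0.00, so no direction can be given for *Gzmm* at this depth.

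**Figure D2:**
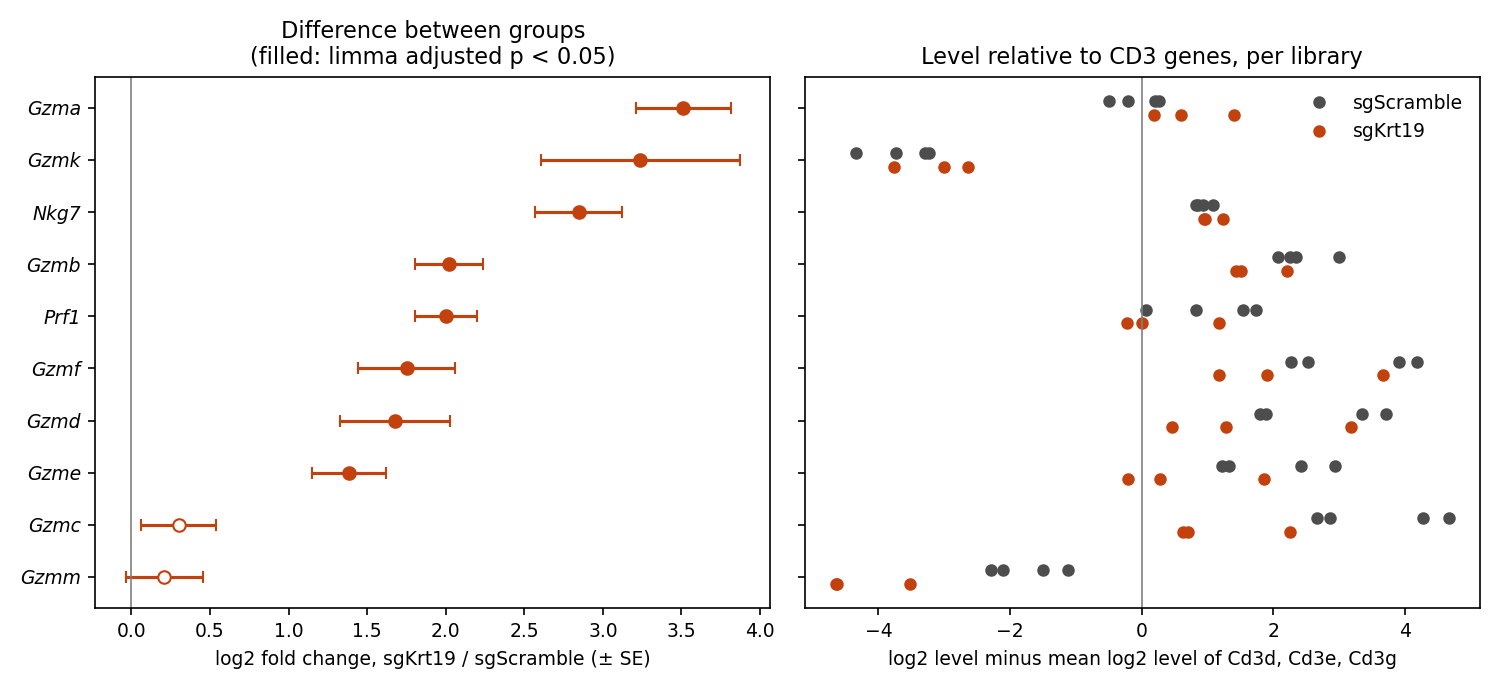
Left, log2 fold change of each member between sgKrt19 and sgScramble with its SE, filled where the limma adjusted p was under 0.05, from 3.51 for *Gzma* to 0.21 for *Gzmm*. Right, the log2 level in each library minus the mean log2 level of *Cd3d*, *Cd3e* and *Cd3g*; *Gzmc* and *Gzmm* are lower in all 3 sgKrt19 libraries and the other 8 genes overlap.

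Levels can be compared between genes only after division by the length of their exons. On that scale, normalized reads per kilobase of exon, the members in sgScramble ran from *Gzmc* (1069 ± 316) through *Gzmf* (784 ± 206), *Gzmd* (517 ± 146), *Gzme* (328 ± 65.1), *Gzmb* (289 ± 76.2), *Nkg7* (162 ± 53.7), *Gzma* (76.3 ± 34.8), *Prf1* (60.9 ± 13.7) and *Gzmm* (14.5 ± 0.939) to *Gzmk* (4.44 ± 3.23). Of the 9 pairs of neighbors in this order, 7 overlapped in their libraries, and only *Prf1* from *Gzmm* and *Gzmm* from *Gzmk* were apart. In sgKrt19 the order was *Gzmf* (2799 ± 1394), *Gzmd* (1805 ± 1047), *Gzmc* (1298 ± 329), *Nkg7* (1150 ± 296), *Gzmb* (1142 ± 128), *Gzme* (884 ± 325), *Gzma* (826 ± 130), *Prf1* (241 ± 32.1), *Gzmk* (47.7 ± 28.4) and *Gzmm* (16.9 ± 0.834). Again 7 of the 9 neighbors overlapped, and the 2 gaps were those on either side of *Prf1*. *Gzmc* stood first in sgScramble and behind *Gzmf* and *Gzmd* in sgKrt19, and *Gzmk* and *Gzmm* changed places at the bottom.

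The makeup of the pool of these 8 granzymes was compared on the same scale. The sum leaves out *Gzmg*, an abundant gene of the cluster (means of 701 and 2145 per kilobase), and *Gzmn*. The summed level of the 8 granzymes per kilobase was 3083 ± 638 in sgScramble and 8818 ± 2891 in sgKrt19, a ratio of 2.86. *Gzmc* held 34.2%, 29.4%, 38.1% and 35.2% of it in the sgScramble libraries and 16.9%, 14.1% and 13.9% in the sgKrt19 libraries. Its share was therefore lower in every sgKrt19 library, although its own level was not called different. *Gzma* held 4.77%, 2.87%, 1.13% and 1.92% in sgScramble and 14.8%, 8.80% and 6.80% in sgKrt19, higher in all 3. With *Gzmg* and *Gzmn* added to the sum, *Gzmc* held 23.9% to 30.8% in sgScramble and 10.8% to 14.5% in sgKrt19, and *Gzma* 0.912% to 3.99% and 5.25% to 12.7%, again apart. The share of *Gzmm* was lower in all 3 sgKrt19 libraries, with means of 0.489% and 0.203%. Since the sum rose, any gene that rose less than the sum loses share. The lower shares of *Gzmc* and *Gzmm* are therefore not results apart from their levels. The shares of *Gzmb* (means 9.96% and 14.1%, exact permutation p = 0.29, two-sided), *Gzmd* (16.6% and 19.4%), *Gzme* (10.7% and 9.94%), *Gzmf* (25.2% and 30.6%) and *Gzmk* (0.165% and 0.632%) overlapped between the groups. With 7 libraries the smallest two-sided exact permutation p is 0.0571, so no share can pass 0.05 in such a test.

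**Figure D3:**
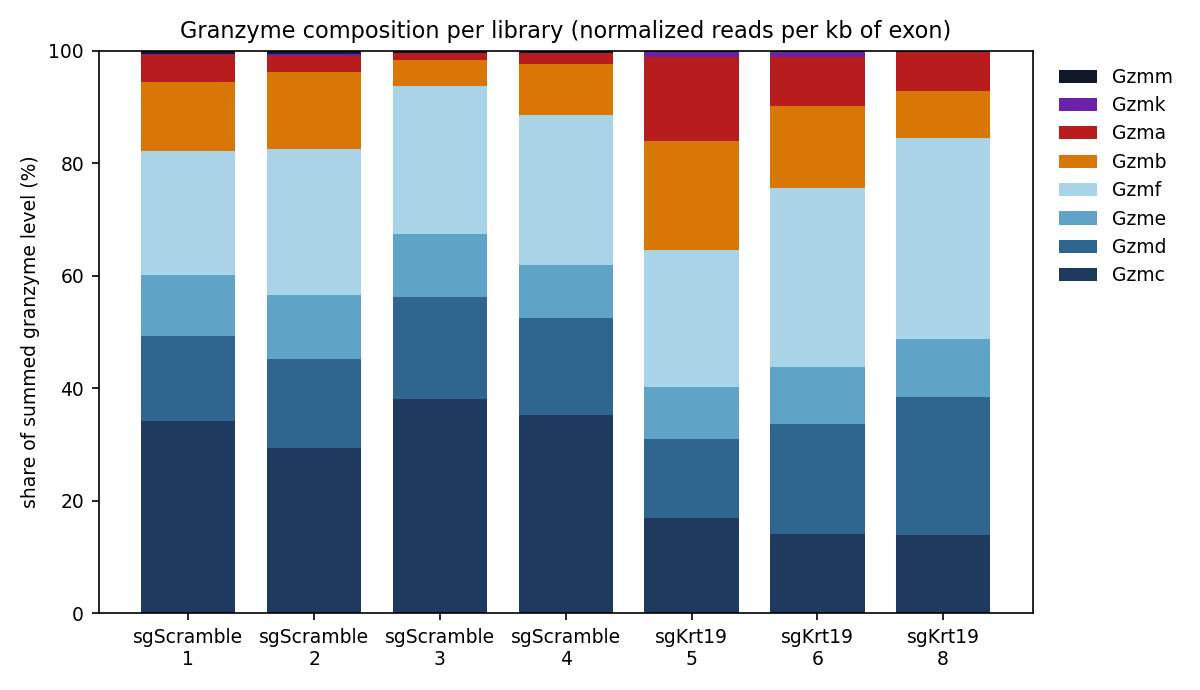
Share of each of the 8 granzymes in their summed level per kilobase of exon, in percent, 1 bar per library. The *Gzmc* share is 29.4% to 38.1% in sgScramble and 13.9% to 16.9% in sgKrt19, and the *Gzma* share is 1.13% to 4.77% and 6.80% to 14.8%.

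The members were next set against the T cell receptor genes *Cd3d*, *Cd3e* and *Cd3g*, which were themselves higher in sgKrt19. *Cd3e* had values of 76.2, 98.8, 36.5 and 49.2 in sgScramble and of 409, 515 and 261 in sgKrt19, with a log2 fold change of 2.63 (limma, SE 0.344, adjusted p = 0.000470). Relative to the mean log2 level of the 3 CD3 genes, *Nkg7* lay at a log2 distance of 0.82 to 1.08 in sgScramble and 0.94 to 1.24 in sgKrt19 (difference 0.12, exact permutation p = 0.34, two-sided). Its difference was −0.35 with the CD8 genes *Cd8a* and *Cd8b1* as reference (exact permutation p = 0.34), so no direction can be given. *Gzma* (difference 0.79, exact permutation p = 0.17), *Gzmb* (−0.70, p = 0.11), *Prf1* (−0.72, p = 0.29) and *Gzmk* (0.51, p = 0.29) overlapped between the groups, with exact p-values over all 35 ways to label 3 of 7 libraries. With the CD8 genes as reference, *Gzmb* was at −1.18 and lower in all 3 sgKrt19 libraries (exact permutation p = 0.0571), and with a pseudocount of 5 the difference of *Gzmk* to the CD3 genes was −0.10. *Gzmd* (−1.04), *Gzme* (−1.34) and *Gzmf* (−0.97) also overlapped. *Gzmc* (−2.42) and *Gzmm* (−2.51) were lower relative to the CD3 genes in all 3 sgKrt19 libraries, with the smallest exact permutation p the design allows, 0.0571. That position was shared by 94.6% of all genes tested, because the CD3 genes rose, and 0.136% of genes were higher relative to them in all 3 libraries, none of the members among them.

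Relative to *Gzmb*, *Gzma* was higher in all 3 sgKrt19 libraries, with log2 distances of −2.76 to −1.87 in sgScramble and of −1.24 to −0.81 in sgKrt19. The difference was 1.49 (exact permutation p = 0.0571, the smallest possible). *Nkg7* was also higher relative to *Gzmb*, by 0.83 (exact permutation p = 0.0571), and 0.408% of all genes tested were higher in all 3 libraries on this scale. *Prf1* overlapped between the groups on the *Gzmb* scale (difference −0.02, exact permutation p = 1.0, two-sided). *Gzmc* (−1.72) and *Gzmm* (−1.81) were lower in all 3, as were 93.4% of all genes. For *Gzmd* (−0.34), *Gzme* (−0.63), *Gzmf* (−0.27) and *Gzmk* (1.22) the libraries overlapped. The number of comparisons on the CD3 and *Gzmb* scales was 19, and no p-value in them can pass 0.05.

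Within a group the members did not all vary together. In sgScramble, library 3 was the highest of the 4 for *Gzmc*, *Gzmd*, *Gzme* and *Gzmf* and the lowest for *Gzma*, *Gzmb* and *Nkg7*. It was also the lowest for *Cd3e* and stood apart in its muscle genes. In sgKrt19, library 8 was the highest of the 3 for 6 of the 10 members (*Gzmc*, *Gzmd*, *Gzme*, *Gzmf*, *Gzmm* and *Prf1*) and the lowest for *Gzmb*, *Gzmk* and *Nkg7*, as it was for *Cd3e*. Library 5 was the highest for *Gzma*, *Gzmb* and *Nkg7* and the lowest for 5 others. The share of *Gzmc*, *Gzmd*, *Gzme* and *Gzmf* together in the granzyme level, 82.1%, 82.5%, 93.7% and 88.6% in sgScramble, was 64.5%, 75.5% and 84.6% in sgKrt19.

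**Figure D4:**
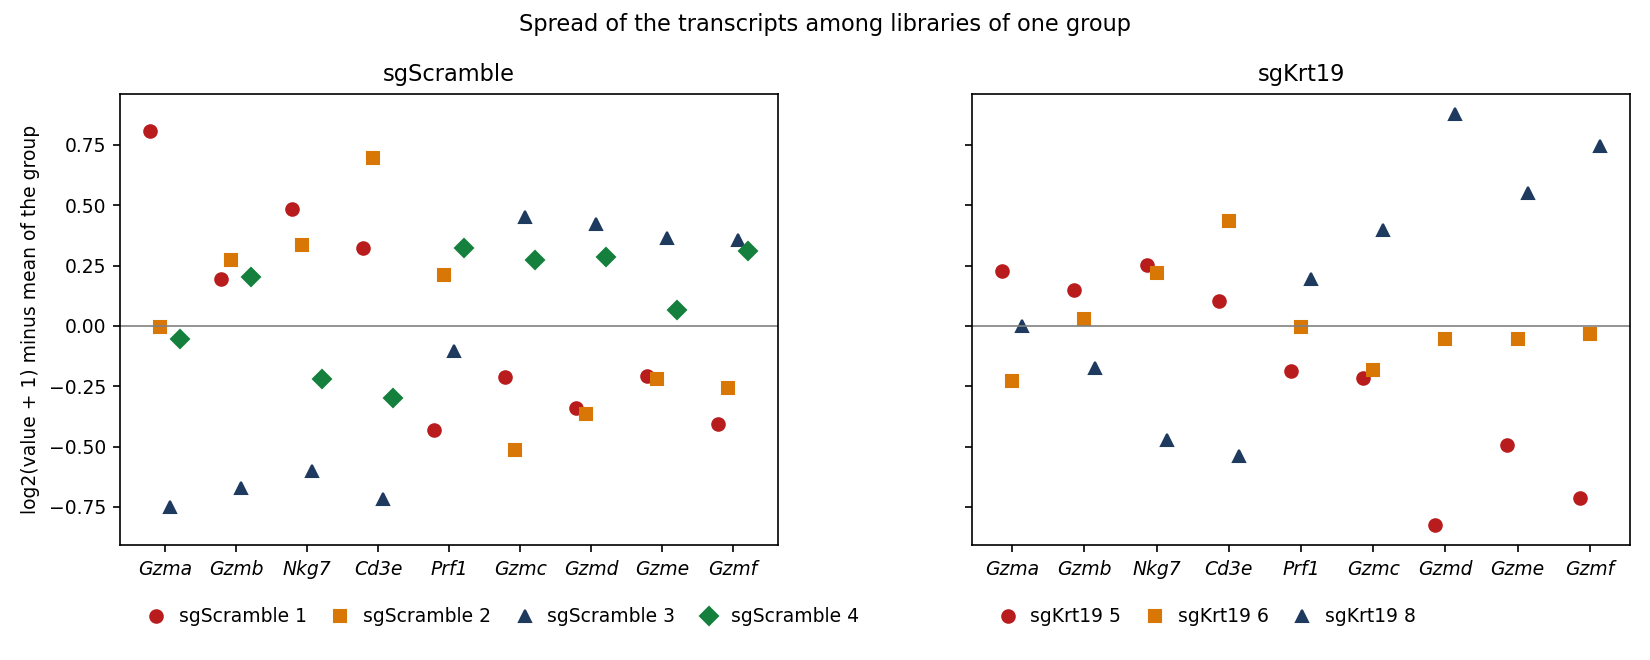
Log2(value + 1) of each gene in each library minus the mean of its group, with *Cd3e* for comparison and 1 symbol per library. sgScramble 3 is lowest for *Gzma*, *Gzmb*, *Nkg7* and *Cd3e* and highest for *Gzmc* to *Gzmf*, and sgKrt19 8 is lowest for *Gzmb*, *Nkg7* and *Cd3e* and highest for *Gzmc* to *Gzmf*.

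The genes whose profiles lay nearest differed from member to member. Likeness was the root mean square of the differences between log2 profiles over the 7 libraries, each centered on its mean. The search covered 12575 genes with a mean value of at least 100. The members themselves and genes with clone or model names were left out of it. Nearest to *Gzmb* were *Tap1* (0.149), the peptide transporter of antigen processing, the class I gene *H2-Q6* (0.199) and *Zap70* (0.207), a kinase of T cell receptor signaling. Nearest to *Gzmk* were the T cell genes *Cd8b1* (0.344), *Cd8a* (0.464) and *Cd3d* (0.508). Nearest to *Gzma* were *Phf11d* (0.489), *Ly6a* (0.522) and *Ido1* (0.523), and *Prf1* lay nearest to *Ptprd* (0.229), *Cspg4* (0.248) and *Suox* (0.248). *Gzmf* was added after its values were seen. Outside the members it was nearest to its neighbor *Gzmg* (0.155), and after that to *Hr* (0.207) and *Neurl1b* (0.2504). Its distances to *Gzmc*, *Gzmd* and *Gzme* were not ranked, since these are members. These distances describe 7 libraries that share the group difference.

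*Gzmg* itself was at 450, 511, 769 and 818 in sgScramble and at 946, 1769 and 3136 in sgKrt19 (log2 fold change 1.49, limma adjusted p = 0.0104), above the controls in all 3. *Gzmn*, further along the cluster, was at 10.9 to 24.1 and at 26.6 to 100.8 (1.51, limma adjusted p = 0.0255). Among 21 serine proteases of the granzyme and mast cell loci, 20 were tested, 11 were called higher, 1 lower (*Mcpt8*, a basophil protease, −1.37, whose libraries overlapped) and 8 not called, beside 17.9% higher and 16% lower among all genes. Of the 11, 8 are granzymes, and the others are *Ctsg*, *Cma2* and *Mcpt9*, at means of 3.503 to 8.38 in sgScramble and 15.5 to 40.8 in sgKrt19. *Ctsg*, *Cma2*, *Mcpt9* and the granzyme *Gzmk* passed the filter on low values by their sgKrt19 libraries, so their place in this count is in part set by the filter. The abundant mast cell proteases *Mcpt1*, *Mcpt2*, *Mcpt4* and *Cma1*, which lie beyond the granzyme genes on chromosome 14, did not pass with all 7 libraries. Without sgScramble 3 all 4 were called higher, with log2 fold changes of 1.24, 0.78, 1.58 and 1.39, and 15 of the 20 proteases were called in place of 12.

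A list of 24 other genes of cytotoxic cells, which holds genes of the granule, effector molecules outside it and inhibitors, had 13 members called higher, 1 lower and 10 not called, with a median log2 fold change of 0.47. Among all genes 17.9% were called higher and 16% lower. Many of the 24 genes are not limited to killer lymphocytes. In sgScramble the means of *Lamp1* (23849) and *Calr* (23841) were far above that of *Prf1* (157). Which cells the values of this list came from was not tested. Divided by role after the values were seen, 7 of the 15 granule genes were called higher and 8 were not called (median 0.19), all 6 effector and surface molecules were called higher, and of 3 inhibitors 1 was called lower. *Srgn*, the proteoglycan scaffold of the granule, rose from 1494 ± 291 to 2457 ± 389, or by 0.72 on the log2 scale. *Rab27a*, a GTPase of granule docking, rose from 440 ± 72.8 to 1392 ± 235 (1.66, limma adjusted p = 0.000103). The proteases that trim granzymes in the granule were split, since *Ctsh* rose (1.09) and *Ctsc*, the main activator, was not called (0.04), with 7717 ± 1009 and 7972 ± 1509. *Cst7*, an inhibitor of such cathepsins in cytotoxic cells, rose by 1.55 on the log2 scale. The release genes *Unc13d* (0.03), *Stx11* (0.19), *Stxbp2* (0.00) and *Lyst* (−0.25), each of which is mutated in a human disorder of granule release or granule formation, did not pass.

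The 6 effector and surface molecules called higher were *Slamf7* (log2 fold change 1.15), *Ifng* (2.57), *Crtam* (2.47), *Fasl* (2.05), *Tnfsf10* (1.56) and *Tnf* (1.19). *Fasl* had values of 30.7, 35.6, 11.9 and 20.4 in sgScramble and of 114, 131 and 60.9 in sgKrt19, with all 3 above the controls and library 8 the lowest. Among the inhibitors, *Serpinb9*, which blocks granzyme B in mouse cells, was abundant and not called (6292 ± 1047 and 6693 ± 807, log2 fold change 0.10, limma adjusted p = 0.638). Its relative *Serpinb9b* was the 1 member called lower, at 109, 137, 163 and 204 in sgScramble and 67.0, 51.0 and 35.7 in sgKrt19 (−1.57, SE 0.273, limma adjusted p = 0.00213). *Serpinb6b* was not called (−0.30, limma adjusted p = 0.139).

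Of 11 proteins that granzymes cleave in target cells, 10 had a row, 3 were called higher, among them *Hmgb2* (0.83) and *Ndufs3* (0.52), and 7, among them *Bid*, were not called, with a median of 0.19 (17.9% of all genes were higher). That median was −0.03 with libraries scaled by total reads alone.

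Among 20 transcription factors and cytokine genes that are known to act on granzyme and perforin genes, 13 were called higher, 3 lower and 4 not called, with a median log2 fold change of 0.87, against 17.9% higher and 16% lower of all genes. *Tbx21*, the T-box factor of cytotoxic and type 1 helper cells, had values of 33.4, 29.6, 14.6 and 40.8 in sgScramble and of 102, 119 and 83.0 in sgKrt19. These were 3 values above all controls, and the difference came to 1.81 on the log2 scale (SE 0.333, limma adjusted p = 0.00289). *Il2rb*, the receptor chain shared by interleukin-2 and interleukin-15, rose by 1.77 on the log2 scale (limma adjusted p = 7.09e-05), and *Il15* (0.90), *Il15ra* (1.03), *Il2rg* (1.25), *Eomes* (0.88) and *Runx3* (0.63) were also called higher. The 3 called lower were *Zeb2* (−0.84), *Stat5a* (−0.62) and *Stat5b* (−0.54), while *Prdm1* (0.04), *Id2*, *Bhlhe40* and *Il12rb2* were not called. Most of these genes are also known from cells other than killer lymphocytes.

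**Figure D5:**
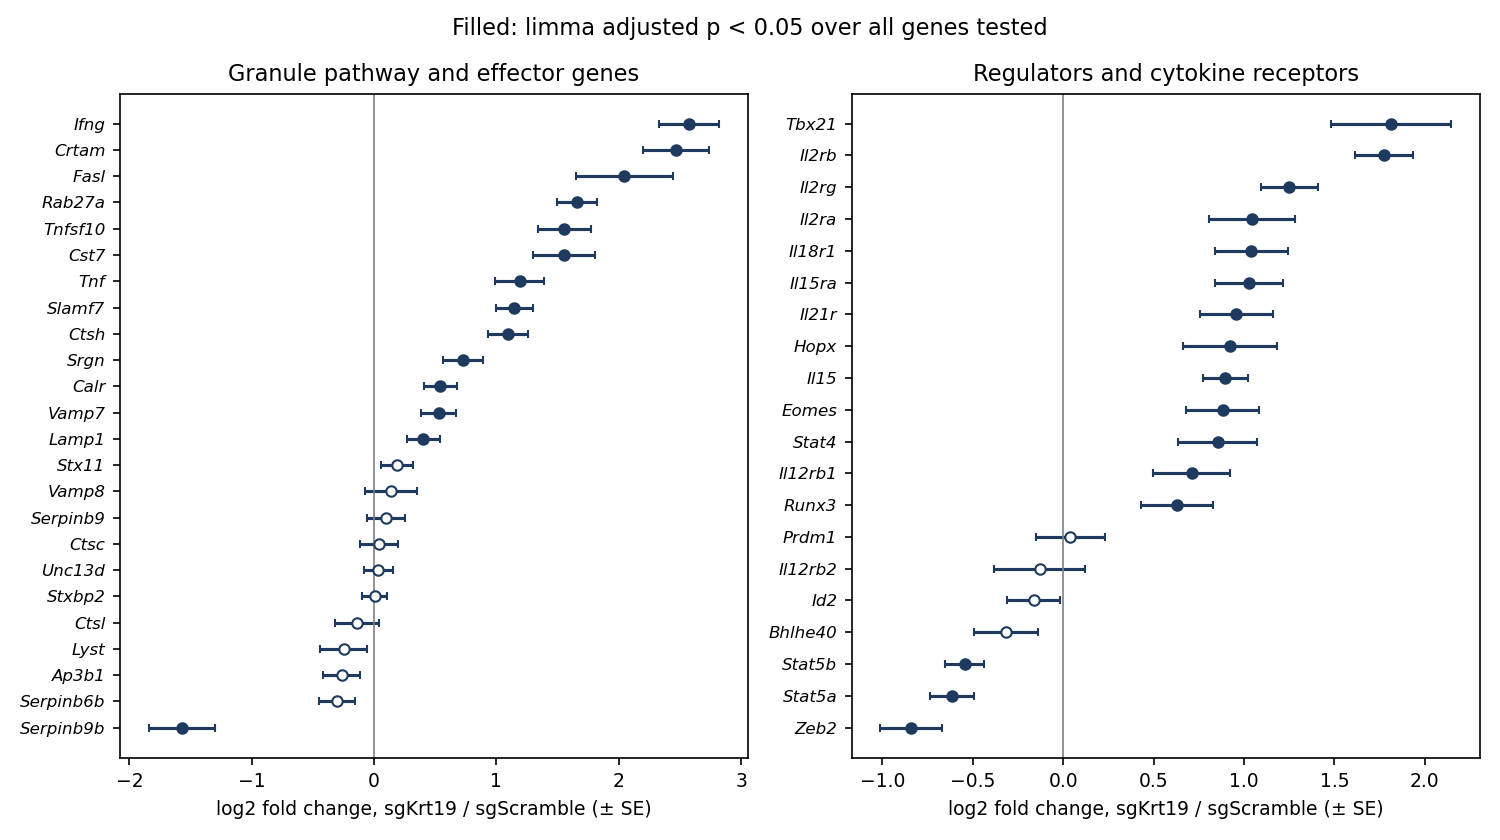
Log2 fold change between sgKrt19 and sgScramble with its SE for the 24 granule, effector and inhibitor genes (left) and the 20 regulators (right), filled where the limma adjusted p was under 0.05. *Ifng* is highest on the left at 2.57 and *Serpinb9b* lowest at −1.57, and on the right *Tbx21* is highest at 1.81 and *Zeb2* lowest at −0.84.

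Markers of the cells that could hold these transcripts moved as well, beside 17.9% of all genes called higher and 16% lower. Of 12 T cell genes, 11 were called higher and *Cd4* was not, and their summed value was 937 to 1584 in sgScramble and 4613 to 8215 in sgKrt19. Of 10 NK cell genes, 7 were called higher, with sums of 663 to 1081 and 1996 to 2465, but the defining receptor gene *Ncr1* was at 13.9, 13.8, 8.22 and 28.8 and at 22.0, 17.0 and 49.4, which overlap (0.81, limma adjusted p = 0.197). Nor did *Klrb1c* (1.17, limma adjusted p = 0.0525), whose libraries also overlapped, and *Klra9* (1.21, limma adjusted p = 0.0866) pass. *Klra8*, 1 of the 7 called and at 4.94 to 16.7 in sgScramble, needed its sgKrt19 libraries to pass the filter on low values. Only 4 NK cell genes were called without sgScramble 3, and 4 with scaling by total reads. Of 4 gamma-delta T cell genes tested 3 were higher (sums of 24.7 to 51.9 and 129 to 182), as were 6 of 6 general leukocyte genes (9965 to 13859 and 17742 to 24294). The gamma-delta genes *Trdc* and *Tcrg-C1* passed the filter on low values by their sgKrt19 libraries. Of the neutrophil genes 5 of 6 tested were higher (sums of 380 to 573 and 1096 to 1187), with overlapping libraries for *Csf3r*. Among the 5, *Retnlg*, at 3.95 to 11.1 in sgScramble, passed the filter on low values by its sgKrt19 libraries. *Mmp8* was not called (0.29). *Ly6g*, at 0.91 to 5.78 over the 7 libraries, and *Ngp*, at 0 to 9.25, did not pass the filter. Of the 3 plasmacytoid dendritic cell genes tested 1 was called higher, *Bst2*, which many cells express, while *Tcf4* (−0.32) and *Il3ra* (0.20) were not called and *Siglech*, at 1.83 to 14.7 over the 7 libraries, did not pass the filter. Their summed values, 6879 to 9823 and 12426 to 18556, are mostly those of *Bst2* in sgKrt19 (9106 to 14309). The mast cell list had 1 of 9 genes called higher, *Hdc*, with overlapping sums of 691 to 2467 and 1539 to 2046, and 6 without sgScramble 3. The basophil list had 1 of 3 called lower (102 to 257 and 68.3 to 113). Of 7 genes of the epithelial cancer cell 5 were called higher (128877 to 173273 and 269289 to 280112), and *Epcam* (0.06) and *Cldn4* (−1.23) were not called. These sums are mostly those of *Krt8* (means of 55494 in sgScramble and 103416 in sgKrt19) and *Krt18* (49260 and 95589). The number of cancer cells was not measured. No defining marker list was at 0 in all libraries, and the part of each cell type in the granzyme values was not tested.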

How the data were processed

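The deposited table holds 1 row per gene and 1 column for each tumor. Its unit is a signal, namely reads per gene after the authors divided them by a size factor of the library. Since every value is a multiple of what 1 read is worth, the reads could be recovered as whole numbers (within 0.1%) for 100% of values. The submitters' notes name the mm10 build. The aligner, the counter and the annotation are not given in the sources used here. Reads were single, 76 bases long. The labels name polyA RNA, and the methods name a stranded total RNA kit. Of the gene identifiers, 37167 (97.74%) matched GENCODE M21, which gave positions and exon lengths.

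Groups follow the labels. Nothing says which libraries were prepared together. The limma p-values set each group difference against the spread among tumors of the same group. They cannot cover differences between guides or clones, which the sources do not give for these 7 tumors. Replicate libraries differed by more than sampling noise (chi-square per degree of freedom 18.8 to 81.0). limma 3.58.1 (R 4.3.3, trend) was fitted to log2(value + 1) of the genes that reached 10 in 3 or more libraries, with Benjamini-Hochberg adjustment over all of them. Fold changes are on that scale, which understates those of low genes. The filter asks for 3 libraries, as many as sgKrt19 has, so a gene can pass it by its sgKrt19 values alone. For such a gene a call as higher is in part set by the filter. Where a symbol had 2 rows (*Ndufs3*, *Il12rb1*, *Vamp8*), the row with the higher mean was used. Alternatives were edgeR 4.0.16 (TMM, quasi-likelihood) and DESeq2 1.42.0 on the recovered reads, scaling by total reads, other pseudocounts and filters, and leaving out each library. The test was checked on simulated data. For levels relative to the CD3 genes or *Gzmb*, limma was planned but called 97.3% and 96% of all genes, because the error of the reference enters every gene, so its p-values were dropped for exact permutation tests of each gene, chosen after seeing the data. The genes named are all 10 members, the edited gene, and members of lists by role. For the profiles, 3 nearest genes outside the members were named for *Gzma*, *Gzmb*, *Gzmk* and *Prf1*. The members and lists were chosen with earlier results of these data known. A few items that the files or methods name are not reported here.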

Additional observations from a re-analysis of the deposited data

Results flagged for a closer look

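In 4 of 53 groups of 4 sgScramble values that were searched (7.55%), 1 library stood far from the other three. Chance alone gives about 1 in 20. The value of *Gzmb* in sgScramble 3 was 252, against 460 to 486 in the others. The log2 level of *Gzmm* relative to *Gzmb* in the same library was −3.46, against −4.50 to −4.36, which rests on that low *Gzmb* value. The share of *Gzmf* in the granzyme level was 22.1% in sgScramble 1, against 25.9% to 26.6%. The summed value of the skeletal muscle genes was 2925 in sgScramble 3, against 298 to 357. Without sgScramble 3 the log2 fold change of *Gzmb* was 1.80 and that of *Gzma* 3.26.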

How the results depend on the processing

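The count of 8 members called higher was the same with edgeR, with DESeq2, with scaling by total reads, with pseudocounts of 0.5 and 5, without a filter and without any 1 library, and was 7 with a minimum value of 50, under which *Gzmk* and *Gzmm* were not tested. No member changed direction or its side of the threshold where it was tested. Without 1 library, the log2 fold changes ranged from 3.26 to 3.78 for *Gzma*, 1.80 to 2.11 for *Gzmb*, 0.10 to 0.45 for *Gzmc*, 1.24 to 2.09 for *Gzmd*, 1.11 to 1.63 for *Gzme*, 1.38 to 2.11 for *Gzmf*, 2.83 to 3.89 for *Gzmk*, 0.17 to 0.24 for *Gzmm*, 1.86 to 2.11 for *Prf1* and 2.65 to 3.08 for *Nkg7*. No paired analysis was possible because the 2 groups share no replicate number.

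Scaling by total reads moved the median log2 fold change of all genes from 0.01 to −0.21, changed the calls to 2187 genes higher and 5705 lower, and took the list medians to 0.25 for the granule pathway, −0.0297 for the substrates and 0.65 for the regulators. It called 5 substrates, 4 NK cell genes and 2 plasmacytoid dendritic cell genes. DESeq2 also called 5 substrates, and having no filter called 2 plasmacytoid dendritic cell genes. A minimum value of 50 called 5 substrates, 7 cluster proteases and 1 gamma-delta T cell gene, since fewer genes were tested. With the CD8 genes in place of the CD3 genes, the difference of *Gzmb* was −1.18 and that of *Nkg7* −0.35, and with a pseudocount of 5 that of *Gzmk* was −0.10 (−0.0989). The difference in the share of *Gzmm* was −0.44 percentage points without scaling by length, and that of *Gzmc* was −15.6 points with *Gzmg* and *Gzmn* in the sum, which was added after seeing the data. The cause was not tested.

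Without 1 library, the counts over all genes ranged from 2481 to 4103 higher (fewest without sgKrt19 5) and from 2232 to 3611 lower (fewest without sgScramble 2). The list medians ranged from 0.36 to 0.51 for the granule pathway, 0.12 to 0.24 for the substrates and 0.71 to 0.90 for the regulators. The called genes numbered 2 to 5 for the substrates, 9 to 15 for the cluster proteases (most without sgScramble 3), 4 to 7 for NK cells, 1 to 6 for mast cells, 0 to 1 for basophils, 3 to 5 for neutrophils and 1 to 2 for plasmacytoid dendritic cells. *Mcpt8* lost its call without sgScramble 1, sgScramble 3, sgKrt19 6 or sgKrt19 8. Depth limits *Gzmk* and *Gzmm*, which had 2 to 98 and 21 to 25 reads a library.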
